A study of Homo sapiens with 3 samples.

Results

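The Fanconi anaemia genes FANCA, FANCB, FANCC, FANCD2, FANCE, FANCF, FANCG, FANCI, FANCL and FANCM were taken by symbol from the gene table, and their isoforms by gene name from the isoform table. All 10 were found among 23284 genes, with 17 isoforms among 41138. The libraries came from HEK293T, an established human embryonic kidney line. Polyadenylated RNA was collected 48 h after cells were seeded onto an siRNA mixture, and no culture received TGF-beta. ESRP2 siRNA targeted an epithelial splicing regulator, Arkadia siRNA targeted the ubiquitin ligase encoded by RNF111, and a negative control siRNA was the reference. Each of these 3 groups had 1 library, so every difference below is between libraries, with no replicates, no test and no p-value. The set was selected on results of these libraries, chosen by the isoform FPKM and shares of FANCL among other values, so these are given as a description. A value is FPKM, a fragment number scaled to transcript length and library size, with the authors' confidence interval in parentheses.

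The Fanconi anaemia pathway repairs DNA interstrand crosslinks during replication. FANCM anchors a core complex on damaged DNA, the core proteins FANCA, FANCB, FANCC, FANCE, FANCF and FANCG assemble it, and FANCL is its RING-type ubiquitin ligase. With the conjugating enzyme UBE2T, FANCL attaches ubiquitin to FANCD2 and FANCI, which form a clamp on DNA until USP1 and WDR48 remove the mark. These genes are expressed in dividing cells generally.

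The targeted transcripts were lowest in the library given their own siRNA. ESRP2 was 4.27 (0.0878 to 9.33) with ESRP2 siRNA, 21.2 with Arkadia siRNA and 14.8 (3.34 to 26.3) with control siRNA. RNF111 was 7.65 with ESRP2 siRNA, 1.15 (0.50 to 1.82) with Arkadia siRNA and 6.38 (3.15 to 9.59) with control siRNA. The intervals overlapped for ESRP2 and not for RNF111. Low FPKM steps of transcripts of 2000 to 3000 nt implied about 12.3, 8.93 and 11.8 M reads with ESRP2, Arkadia and control siRNA. By this estimate the Arkadia siRNA library was the shallowest. Library scaling is not given, so these may not be the read totals. Genes known from HEK293 cells, such as NEFL and SALL2, had a mean FPKM of at least 1 for 7 of 8 listed. For markers of other cell types it was 2 of 18, among them ACTA2, and HBB was at 0 throughout. The summed level of these 18 was 7.08, 7.48 and 8.25 FPKM with ESRP2, Arkadia and control siRNA.

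The sequence that separates both FANCL isoforms is shown first, because their levels differed between the libraries. NM_001114636 and NM_018062 have the same 14 exons and differ in exon 7, which is 84 nt in the longer and 69 nt in the shorter isoform in GENCODE 29. The extra 15 nt lie inside the coding sequence after 540 coding bases, and so add 5 codons in frame, giving 380 codons in place of 375. They occupy chr2:58198579-58198593 on GRCh38, minus strand. The lines below give these bases in capitals with 30 nt of flanking transcript on either side.
NM_001114636: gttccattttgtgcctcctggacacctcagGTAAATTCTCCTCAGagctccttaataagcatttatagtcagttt
NM_018062: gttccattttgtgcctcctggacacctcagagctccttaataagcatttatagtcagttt
The capitals begin with GT, the letters that open most introns, and their last 6 letters are the same as the 6 before them. The other 1683 nt of both transcripts are identical in GENCODE 29, so only reads that reach these 15 nt or the junction that skips them distinguish the isoforms. How many did is not given in the files.

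The estimated FANCL isoform usage differed between all 3 libraries. The longer isoform stood at 14.0 (1.26 to 27.2) with ESRP2 siRNA, 14.1 (4.71 to 23.5) with Arkadia siRNA and 0.0011 (0 to 0) with control siRNA. The shorter isoform was 13.4 (1.05 to 26.2) with ESRP2 siRNA, 0.0262 (0 to 0.0553) with Arkadia siRNA and 20.7 (7.52 to 34.03) with control siRNA. In shares, the longer isoform made up 51.0% of FANCL with ESRP2 siRNA, 99.8% with Arkadia siRNA and 0.0053% with control siRNA. By these estimates, nearly only the shorter form was assigned to the control library and nearly only the longer one to the Arkadia siRNA library. Both were assigned to the ESRP2 siRNA library in similar amounts, with intervals so wide (1.26 to 27.2 and 1.05 to 26.2) that the split is only loosely fixed.

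Intervals of the shorter isoform did not overlap between Arkadia siRNA and either other library, and they overlapped between ESRP2 and control siRNA. For the longer isoform they did not overlap between either knockdown and control siRNA. The control interval of 0 to 0 excludes its own FPKM, so that separation says little. FANCL as a whole had about 552 reads with ESRP2 siRNA, 207 with Arkadia siRNA and 399 with control siRNA, over the full transcript.

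A usage change, the summed absolute change of isoform shares divided by 2, runs up to 1 for a complete exchange. For FANCL it was 0.998 between Arkadia and control siRNA, 0.510 between ESRP2 and control siRNA and 0.488 between Arkadia and ESRP2 siRNA. Among 3455 multi-isoform genes whose isoforms added up to an FPKM of 5 or more in every library, no other gene reached the FANCL value between Arkadia and control siRNA. Between ESRP2 and control siRNA 131 genes were at or above it, FANCL included, and 291 were between Arkadia and ESRP2 siRNA. Selection of the set used the FANCL shares, so these ranks are a description only. A change of 0.25 or more was common: it was met by 20% of these genes for ESRP2 against control siRNA, 17.1% for Arkadia against control siRNA and 26.3% for Arkadia against ESRP2 siRNA.

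The same threshold was read for isoform pairs of similar and of different length. Among 246 genes with exactly 2 isoforms whose lengths were at most 30 nt apart, 20.3% did so between Arkadia and control siRNA, against 8.88% of 1442 genes with isoforms further apart. Between ESRP2 and control siRNA the shares were 16.3% and 12%, and between Arkadia and ESRP2 siRNA 20.3% and 16.7%. The differences between these shares were not tested. A change of 0.9 or more between Arkadia and control siRNA was met by 2 of the 246 close pairs, FANCL among them, and by 0 of the 1442 others. Between Arkadia and ESRP2 siRNA 4 close pairs and 2 of the others met it, and between ESRP2 and control siRNA 2 and 0 did. The part that small differences in length play in the FANCL values was not tested.

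**Figure D1:**
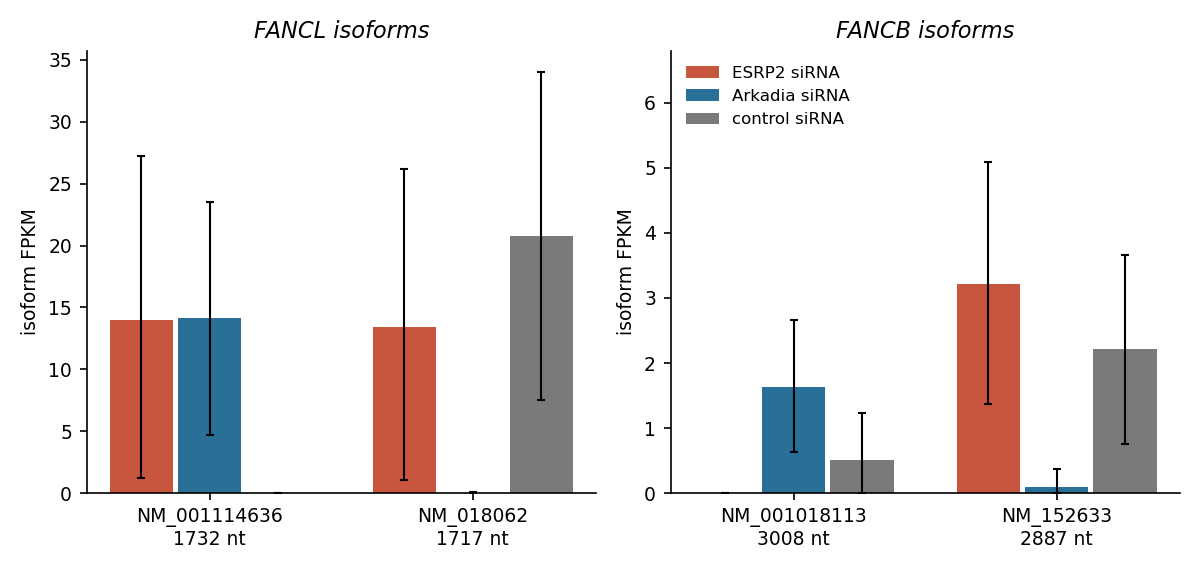
FPKM of both isoforms of FANCL (left) and FANCB (right) in the ESRP2 siRNA, Arkadia siRNA and control siRNA libraries, with the authors' intervals as bars. The shorter FANCL isoform is at 20.7 with control siRNA and near 0 with Arkadia siRNA, and the longer one shows the opposite.

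FANCB, a core complex subunit encoded on the X chromosome, also differed between libraries in its estimated isoform shares, at a low level. Its summed FPKM was under the minimum of 5, so it stands outside the 3455 genes. NM_001018113 was 0.00015 (0 to 0) with ESRP2 siRNA, 1.63 (0.628 to 2.66) with Arkadia siRNA and 0.503 (0 to 1.23) with control siRNA. NM_152633 was 3.22 (1.37 to 5.09), 0.0925 (0 to 0.375) and 2.21 (0.7495 to 3.65) in the same libraries. The share of NM_001018113 was 94.6% with Arkadia siRNA against 18.6% with control siRNA, a usage change of 0.761. Of those genes, all with a higher summed FPKM than FANCB, 14 reached this change. Genes at the low level of FANCB were not ranked. Between ESRP2 and control siRNA the usage change was 0.186.

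Intervals of NM_152633 did not overlap between Arkadia siRNA and either other library. Those of NM_001018113 overlapped between Arkadia and control siRNA, and were apart between Arkadia and ESRP2 siRNA, where the ESRP2 siRNA interval is 0 to 0. Between Arkadia and ESRP2 siRNA the usage change of FANCB was 0.946, which 12 of the 3455 genes of higher level reached. NM_001018113 carries an additional noncoding exon of 121 nt before the coding sequence in GENCODE 29, and both isoforms encode 859 codons. The isoforms also differ in the length of exon 1, 77 nt and 84 nt. FANCB rested on about 114 reads with ESRP2 siRNA, 47 with Arkadia siRNA and 94 with control siRNA, over the full transcript. Only reads that reach these differing exons or their junctions distinguish the isoforms, and their number is not known.

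The other multi-isoform genes kept the same leading isoform in all 3 libraries. For FANCI, one of the ubiquitinated clamp subunits, NM_018193 lacks the 180 nt exon 24 of NM_001113378 and encodes 1268 codons in place of 1328. NM_018193 took 3.32% of FANCI with ESRP2 siRNA, 7.74% with Arkadia siRNA and 0.469% with control siRNA, with intervals that reached 0 in each library. For FANCD2, the other clamp subunit, NM_033084 ends in a different last exon and took 5.77% with ESRP2 siRNA, 1.54% with Arkadia siRNA and 6.65% with control siRNA.

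The short FANCA isoform, NM_001018112, took 23.1%, 21.2% and 20.1% with ESRP2, Arkadia and control siRNA. For FANCC the leading NM_000136 took 88.1% with ESRP2 siRNA, 95.0% with Arkadia siRNA and 92.2% with control siRNA. The usage changes of FANCA, FANCC, FANCD2 and FANCI against control siRNA lay between 0.00879 and 0.0727, under the threshold of 0.25. FANCE, FANCF, FANCG and FANCM have 1 isoform each in the table.

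**Figure D2:**
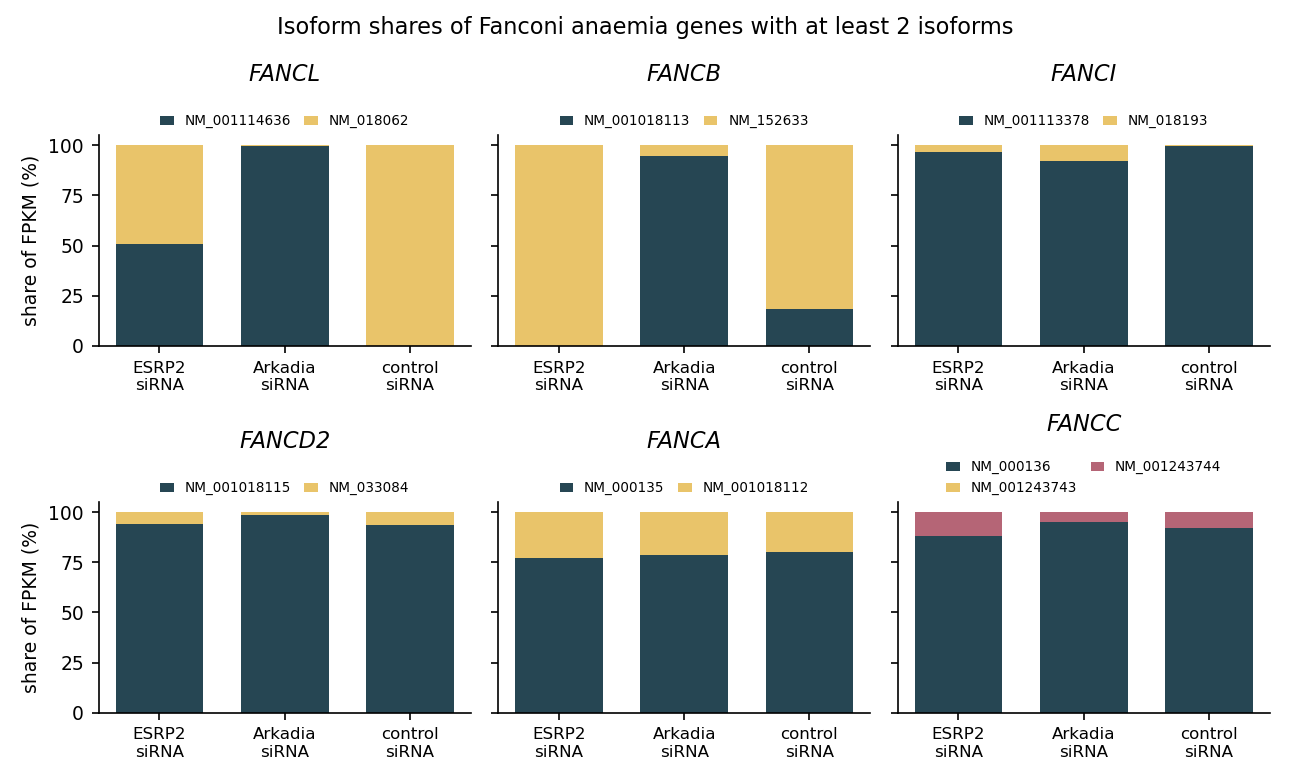
Share of each isoform in the summed FPKM of its gene, in percent, in the ESRP2 siRNA, Arkadia siRNA and control siRNA libraries. FANCL and FANCB differ in leading isoform between libraries, whereas FANCI, FANCD2, FANCA and FANCC keep one leading isoform.

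As whole genes, the 10 spanned from FANCI to FANCF, and the order was similar in each library. FANCI was the most abundant, at 88.6 (34.6 to 143) with ESRP2 siRNA, 46.6 (12.5 to 80.7) with Arkadia siRNA and 60.4 (19.8 to 101) with control siRNA. Its partner FANCD2 was 31.3 (16.1 to 46.5) with ESRP2 siRNA, 24.2 (12.4 to 36.1) with Arkadia siRNA and 29.1 (14.6 to 43.5) with control siRNA. With control siRNA FANCG, FANCA, FANCL, FANCE, FANCC, FANCM and FANCB followed, at 27.7, 25.7, 20.7, 12.5, 7.87, 3.78 and 2.71. Neighbours in this order had overlapping intervals in every library except FANCB and FANCF, whose intervals were apart in all 3.

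FANCF, an intronless core adaptor gene, was near the floor. It was 0.360 (0.127 to 0.583) with ESRP2 siRNA, was listed at 0 with Arkadia siRNA, and was 0.174 (0.0507 to 0.304) with control siRNA. These values correspond to about 15, 0 and 7 reads. The gene did not pass the filter of a mean FPKM of at least 1 and enters no count below, and no fold is given for it.

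**Figure D3:**
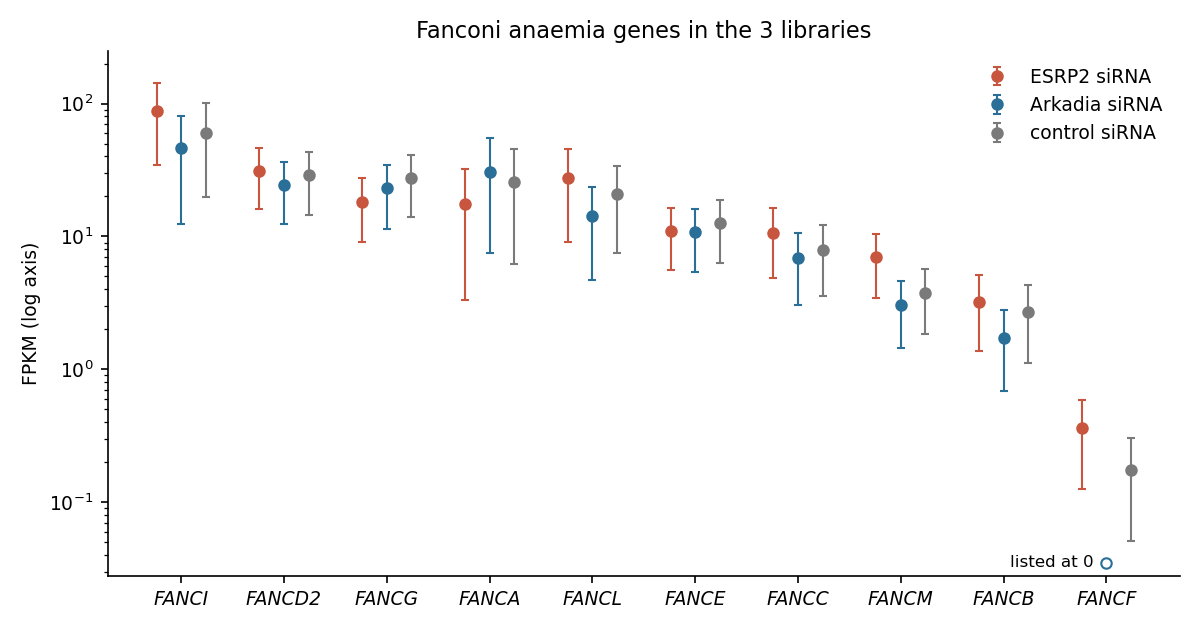
FPKM of the 10 Fanconi anaemia genes on a log axis in the ESRP2 siRNA, Arkadia siRNA and control siRNA libraries, ordered by the control library, with the authors' intervals as bars. FANCI is highest and FANCF lowest in each library, and the open circle marks FANCF listed at 0 with Arkadia siRNA.

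ESRP2 siRNA was compared with control siRNA for the 9 genes that passed the filter, on the scale log2((FPKM + 1)/(FPKM + 1)), which understates changes of low genes. FANCM, the DNA translocase that anchors the core complex, was the only one past the fixed size of 1.5-fold. It rose to 6.96 (3.43 to 10.5) with ESRP2 siRNA, against 3.78 (1.85 to 5.72) with control siRNA, a log2 ratio of 0.73. In bulk RNA, fewer cells of a type and less RNA per cell cannot be told apart. No member fell by 1.5-fold on this scale, although the plain FPKM ratio of FANCG, 0.662, is past that size. Scaled by the median of ratios, 1 rose and 2 fell. Over all 11870 genes compared, 19.9% rose and 11.4% fell by this size, so 1 of 9 is not above the background.

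Members lay on either side of 0 in this comparison, 6 above and 3 below, with a median log2 ratio of 0.18 against 0.12 for all genes. FANCI had a log2 ratio of 0.55, FANCL of 0.39, FANCC of 0.38, FANCB of 0.18 and FANCD2 of 0.10. FANCG, a core scaffold subunit, was 18.3 (9.09 to 27.5) with ESRP2 siRNA and 27.7 (13.9 to 41.4) with control siRNA, a log2 ratio of -0.57. FANCA, the largest core subunit, was 17.7 (3.32 to 32.1) and 25.7 (6.20 to 45.4), a log2 ratio of -0.51, and FANCE, which bridges the core to FANCD2, had -0.17. Intervals overlapped for each of these 9 genes, as they did for most of the table, where 1.28% of genes had intervals apart.

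The sign of these ratios divided the genes by GC content, but their size did not follow it in order, since FANCB had the lowest GC content and a ratio of 0.18. The 6 genes above 0 had a GC content of 36.7% (FANCB) to 50.6% (FANCC), and the 3 below 0 had 55.4% (FANCA) to 58.1% (FANCG). Over all genes the median log2 ratio with ESRP2 siRNA was 0.60 in the GC decile with a median of 37.5% and -0.49 in that with 64.4%. After subtraction of the median of its GC decile, FANCM had a log2 ratio of 0.14 and no member passed 1.5-fold. The sign turned for 4 of the 9 genes: FANCB had -0.41, FANCD2 -0.21, FANCL -0.13 and FANCE 0.06. FANCA had -0.41, FANCG -0.34, FANCC 0.32 and FANCI 0.13, and the median of the 9 genes then was -0.13. FANCD2 also turned, to -0.02, when the libraries were scaled by the median of ratios.

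On the same scale, Arkadia siRNA against control siRNA gave 0 rises and 0 falls among the 9 genes at 1.5-fold. Among all genes 9.81% rose and 11.8% fell. Log2 ratios were below 0 for 8 of 9, and FANCA alone was above it with 0.25. The median was -0.26 against -0.02 for all genes. FANCL had the lowest ratio, at 14.1 (4.71 to 23.6) with Arkadia siRNA and 20.7 (7.52 to 34.03) with control siRNA, a log2 ratio of -0.52. FANCB followed with -0.45, at 1.72 (0.687 to 2.78) and 2.71 (1.12 to 4.30), and FANCI with -0.37. The plain FPKM ratio of FANCB, 0.635, is past 1.5-fold. The remaining 5 genes lay between -0.18 (FANCC) and -0.26 (FANCG).

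The GC trend ran the other way in this comparison, with decile medians of -0.46 at 37.5% and 0.34 at 64.4%. After subtraction FANCG had -0.51 and FANCE -0.46, FANCL had -0.18 and FANCM 0.22, and the median of the 9 genes was -0.14. Intervals overlapped for all 9 genes, and 0.438% of all genes had intervals apart.

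**Figure D4:**
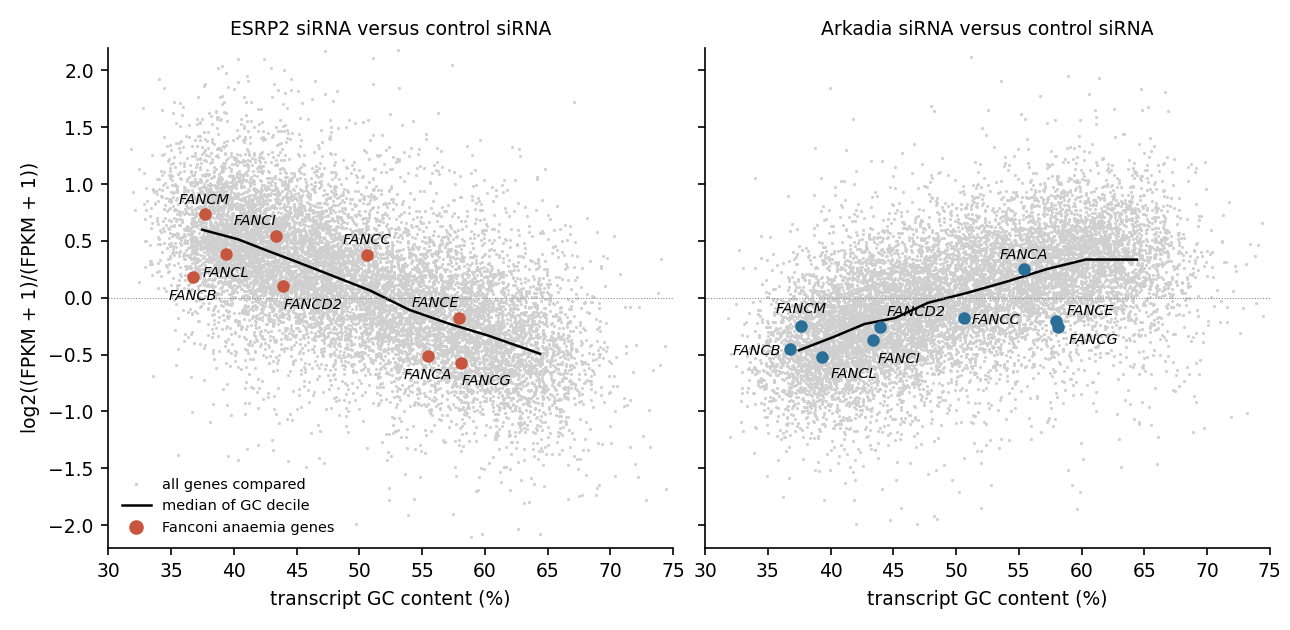
Log2 ratio against transcript GC content for ESRP2 siRNA versus control siRNA (left) and Arkadia siRNA versus control siRNA (right), with all genes in grey, the median of each GC decile as a line and the 9 Fanconi anaemia genes that passed the filter in colour. Genes beyond the axes are not drawn; FANCM at 37.7% GC has log2 ratios of 0.73 on the left and -0.24 on the right.

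Set directly against ESRP2 siRNA, Arkadia siRNA gave the widest differences. FANCM, FANCI, FANCL and FANCB fell and FANCA rose by 1.5-fold or more, which is 4 and 1 of 9 genes, where 30.8% of all genes fell and 21.2% rose. FANCM was 3.04 (1.46 to 4.63) with Arkadia siRNA and 6.96 with ESRP2 siRNA, a log2 ratio of -0.98. FANCI had -0.91, FANCL -0.91 and FANCB -0.63, and FANCA had 0.77. FANCC had -0.56, short of 1.5-fold on this scale, although its plain FPKM ratio of 0.648 is past that size. FANCD2 had -0.36, FANCG 0.31 and FANCE -0.03. Intervals overlapped for all 9, and 6.36% of all genes had intervals apart. After subtraction of GC decile medians no member passed 1.5-fold, FANCM had 0.10 and FANCB 0.45, and FANCA and FANCC were farthest from 0 with 0.52 and -0.54.

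On hg19 the deposited FANCL locus is chromosome 2, 58273777 to 58468515, and it also holds the kinase gene VRK2. VRK2 was 15.6 with ESRP2 siRNA, 6.51 with Arkadia siRNA and 10.2 with control siRNA. Its log2 ratios of 0.56 and -0.58 against control siRNA had the same signs as those of FANCL. The medians of the GC decile that holds FANCL, 0.52 and -0.34, had these signs too. The FANCI locus (chromosome 15, 89787194 to 89878026) is shared with the mitochondrial polymerase gene POLG, which was 66.0, 61.9 and 59.4 with ESRP2, Arkadia and control siRNA. Against control siRNA, POLG had log2 ratios of 0.15 and 0.06, where FANCI had 0.55 and -0.37. The FANCD2 locus also holds C3orf24, at 0.275, 0 and 0.285 in these libraries. The FANCA locus (chromosome 16, 89773541 to 89883065) is shared with C16orf7, LOC100128881 and ZNF276, and LOC100128881 was 24.6, 46.4 and 31.7 in the same libraries. How much exon sequence the genes of a locus share was not measured, and the use of strand is not given in the sources used here.

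The 3 genes nearest to FANCL in both log2 ratios, among 2382 other genes with a mean FPKM within 1.5-fold of that of FANCL, were ATAD2, ATF2 and GINS4. ATAD2, a bromodomain ATPase, was 31.3 with ESRP2 siRNA, 16.2 with Arkadia siRNA and 23.7 with control siRNA. ATF2, a bZIP transcription factor, was 18.6, 9.42 and 14.0 in these libraries. GINS4, a subunit of the replicative helicase, was 35.8, 18.8 and 27.0. Their distances from FANCL were 0.00387, 0.00841 and 0.0215 log2 units, over 3 libraries that share the control.

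UBE2T, the conjugating enzyme that works with FANCL, had the largest rise of the core partners with ESRP2 siRNA. It was 538 (261 to 811) with ESRP2 siRNA, 142 (66.9 to 217) with Arkadia siRNA and 194 (91.7 to 297) with control siRNA. Its log2 ratio with ESRP2 siRNA against control siRNA was 1.46, and 1.05 after GC subtraction. Intervals of the knockdowns did not overlap with each other, and each overlapped with that of control siRNA.

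For the background, 19.9% of the genes compared rose and 11.4% fell with ESRP2 siRNA, and 9.81% rose and 11.8% fell with Arkadia siRNA. After GC subtraction these shares were 9.19% and 7.69%, and 6.34% and 6.98%. Of the 11 core partners compared, 3 rose and 1 fell with ESRP2 siRNA, with a median log2 ratio of 0.18. The helicase BLM was 31.6 with ESRP2 siRNA and 19.5 with control siRNA, its partner RMI1 was 6.76 and 4.11, and C1orf86, which encodes the ubiquitin-binding FAAP20, fell to 3.18 (0 to 9.77) against 10.4 (0.0403 to 27.8). With Arkadia siRNA 1 of the 11 rose and 2 fell, with a median of -0.09. C17orf70, which encodes the core subunit FAAP100, was 30.9 with Arkadia siRNA and 18.4 with control siRNA. STRA13, which encodes the histone-fold protein MHF2, was 199 and 338, and BLM was 11.6 and 19.5. FAAP24, listed as C19orf40, was 7.07, 4.71 and 4.70 with ESRP2, Arkadia and control siRNA, and MHF1, listed as APITD1, was 20.9, 16.1 and 15.6. After GC subtraction, over the 10 partners with a GC value, 2 rose with ESRP2 siRNA (UBE2T and C17orf70) and 1 fell with Arkadia siRNA (STRA13), with medians of 0.22 and -0.07.

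The deubiquitinating enzyme and the nucleases that act after the clamp had 4 rises and 0 falls among 10 with ESRP2 siRNA, with a median log2 ratio of 0.35. WDR48, the activator of USP1, was 57.9 with ESRP2 siRNA and 37.6 with control siRNA, and the nuclease DCLRE1A was 19.3 and 11.3. After GC subtraction 0 of the 10 passed 1.5-fold with ESRP2 siRNA and the median was 0.08, with DCLRE1A at 0.21, WDR48 at 0.20 and ERCC4 at 0.12. As deposited, ERCC4, the catalytic subunit of the XPF nuclease, rose to 6.22 (3.05 to 9.39) with ESRP2 siRNA and fell to 1.75 (0.807 to 2.69) with Arkadia siRNA, against 3.64 (1.76 to 5.52) with control siRNA. With Arkadia siRNA this list had 0 rises and 2 falls and a median of -0.24, and after GC subtraction 1 fall, of SLX4, and a median of -0.18. USP1 itself was 51.4, 32.3 and 45.1 with ESRP2, Arkadia and control siRNA and passed 1.5-fold against control siRNA in neither library.

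Recombination genes downstream of the clamp had 1 rise and 1 fall among 14 with ESRP2 siRNA and a median log2 ratio of 0.11. XRCC3, which acts in homologous recombination, fell to 18.3 with ESRP2 siRNA, against 32.6 with control siRNA. With Arkadia siRNA 1 rose and 3 fell, with a median of -0.14. The helicase gene BRIP1 fell to 2.24 (1.06 to 3.42) with Arkadia siRNA, against 4.77 (2.32 to 7.22) with control siRNA, and XRCC2, a homologous recombination gene, to 4.37 against 9.11. MAD2L2, a subunit of polymerase zeta also counted among the translesion genes, rose to 115 with Arkadia siRNA, against 62.5 with control siRNA. After GC subtraction the median of this list turned to -0.18 with ESRP2 siRNA and was -0.07 with Arkadia siRNA. There BRIP1 had -0.37, MAD2L2 0.54 and XRCC2 -0.68 with Arkadia siRNA, so XRCC2 alone of the 14 passed 1.5-fold.

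Lists farther from the pathway were counted for comparison. Translesion synthesis genes had 2 rises and 0 falls among 9 with ESRP2 siRNA (median 0.31) and 1 rise and 3 falls with Arkadia siRNA (median -0.36), and the sliding clamp PCNA was 357, 170 and 264 with ESRP2, Arkadia and control siRNA. ATR signalling genes had 3 rises and 0 falls among 14 with ESRP2 siRNA (median 0.27) and 0 rises and 3 falls with Arkadia siRNA (median -0.32). TIPIN, a fork protection subunit, was 165 (85.9 to 244) with ESRP2 siRNA, 23.9 (11.8 to 35.9) with Arkadia siRNA and 63.6 (29.7 to 97.2) with control siRNA. RPA3, the smallest subunit of the single-strand binding complex, was 76.2, 16.2 and 24.9 in these libraries.

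Mismatch and end joining repair genes had 5 rises and 1 fall among 14 with ESRP2 siRNA (median 0.15). XRCC4, a partner of the end joining ligase, rose to 11.8 with ESRP2 siRNA, against 5.79 with control siRNA. With Arkadia siRNA they had 0 rises and 1 fall (median -0.34), which was XRCC5, a subunit of Ku, at 206 against 460. After GC subtraction the medians of these last 3 lists lay between -0.04 and -0.01 with ESRP2 siRNA and between -0.30 and -0.04 with Arkadia siRNA. Translesion genes then had 0 rises and 0 falls with either siRNA. ATR signalling genes had 2 rises and 0 falls with ESRP2 siRNA, and 0 and 1 with Arkadia siRNA. Mismatch and end joining repair genes had 0 rises and 1 fall with ESRP2 siRNA, and likewise 0 and 1 with Arkadia siRNA. RPA3 and TIPIN still rose with ESRP2 siRNA, at 1.26 and 0.85, and TIPIN and XRCC5 still fell with Arkadia siRNA, at -1.04 and -0.92, whereas XRCC4 had 0.31 with ESRP2 siRNA.

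**Figure D5:**
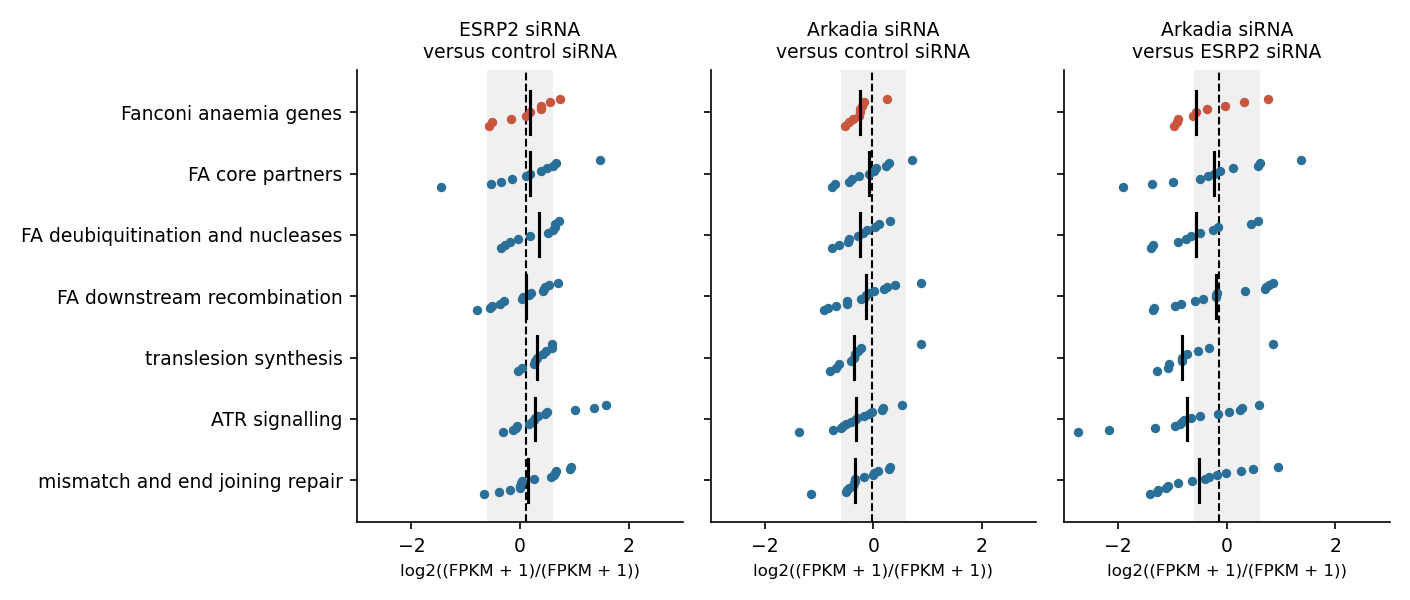
Log2 ratios of the 9 Fanconi anaemia genes and of 6 pathway lists in the 3 comparisons, 1 dot per gene, with the list median as a short line, the median of all genes as a dashed line and the range within 1.5-fold shaded. For ESRP2 siRNA versus control siRNA, RPA3, UBE2T and TIPIN lie farthest to the right, at 1.57, 1.46 and 1.36.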

How the data were processed

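FPKM values with confidence bounds, per gene and per RefSeq isoform, were deposited by the authors. Per the labels' protocols, sequencing ran on Ion PI chips after bead selection of polyadenylated RNA. The genome build hg19 and the tools Cuffdiff, Cufflinks 2.1.1, Bowtie2 2.1.0 and TopHat2 2.0.10 are named per the submitters' processing notes. Library scaling, dispersion model and strand handling were not given in the sources used here. Starts are given from 1. Kept genes had status OK throughout, a mean FPKM of 1 or more and a transcript of 300 nt or longer. The pseudocount was 1. Reads were estimated from the step that 1 read makes in the FPKM of single-isoform genes and are approximate; the interval bounds gave the unit, the same within 1% for 90.6% of 1418 genes. Transcripts of GENCODE 29 gave GC content for 95.1% (accession match) plus 3.81% (symbol match) of genes. All 17 isoforms of the Fanconi anaemia genes matched. Fanconi anaemia genes and lists were chosen with earlier results of these data known, and the comparison of close isoform pairs after the values were seen. Named genes were the 10, the siRNA targets, up to 3 genes past 1.5-fold per list and direction (not all are printed) and the 3 nearest to FANCL; others named were chosen after their values were seen. Scripts (Python 3.11.15, pandas 2.3.3) were tested on simulated data. Some genes of the lists are not reported here by name.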

Additional observations from a re-analysis of the deposited data

How the results depend on the processing

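Counts of the 9 genes past 1.5-fold were small and moved with the settings. For ESRP2 against control siRNA, 1 gene passed as reported. The count was 2 with a pseudocount of 0.1 (FANCM higher, FANCG lower) and 2 after subtraction of length decile medians (FANCA and FANCG lower, FANCM at 0.55 and no longer past 1.5-fold). It was 3 after scaling by the median of ratios or the upper quartile (FANCA and FANCG lower in both), and 0 at 2-fold, with a mean FPKM of at least 5 or after subtraction of GC decile medians. These scalings moved the median log2 ratio of all genes to 0.01 and -0.03, where it was 0.12. For Arkadia against control siRNA, 0 passed, and 1 with a pseudocount of 0.1 or after length subtraction. For Arkadia against ESRP2 siRNA, 5 passed, and 6 with a pseudocount of 0.1 or 0.5. The count was 4 under the median of ratios, the upper quartile or length subtraction. It was 3 with a mean FPKM of at least 5, and 0 at 2-fold or after GC subtraction. After GC subtraction the sign turned for 4 genes in this comparison: FANCB to 0.45, FANCM to 0.10, FANCD2 to 0.12 and FANCG to -0.17. For FANCB and FANCM the subtracted decile median of -1.08 is larger than either fall. For FANCL usage, only the interval bounds in place of FPKM could change the value. They gave 0.545 and 0.510 for ESRP2 and 1 and 0.998 for Arkadia against control siRNA (lower, then upper bounds). The longer isoform has bounds of 0 to 0 with control siRNA, and the shorter has 0 to 0.0553 with Arkadia siRNA. Such bounds fix the Arkadia values near 1 in advance, so they do not test the usage change. The other settings, among them no minimum on summed FPKM, added after seeing the data, returned the reported value, since FANCL has 2 isoforms and passes that minimum. Single log2 ratios moved by over 1 SD, taken from the interval widths, or reversed in 8 of 27 values after GC subtraction. This held for 0 of 27 under each pseudocount, each scaling and the length subtraction. A change of sign alone was not counted there. Signs turned in 10 of 27 values after GC subtraction and 3 after length subtraction. They turned in 2 under the median of ratios and 2 under the upper quartile. Filters and the size of call cannot change single ratios. No paired analysis was possible because each group has 1 library. Depth limits FANCF and the isoforms of FANCB.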
